A study of Mus musculus with 16 samples.

Results

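The genes described here are Pf4, Ppbp, Itga2b, Gp1ba, Gp1bb, Gp9, Gp5 and Tubb1, 8 genes that are read most strongly in megakaryocytes and platelets. They were taken by symbol from a table of raw RNA-seq counts, and all 8 were found among its 23999 gene symbols. The study sequenced polyadenylated RNA from mouse myeloid sarcomas, which are solid masses of acute myeloid leukaemia outside the marrow, and from whole bone marrow infiltrated by the leukaemia. All mice carried mutant nucleophosmin (NPM1cA). Sarcomas came from 4 NPM1cA/SMC3+/- mice, heterozygous for the cohesin gene SMC3: mice 948 and 2721 with 2 libraries each, and 1267 and 1268_1270 with 1 each. The sample titles number the libraries of a mouse as replicates and do not say whether they are separate tumours. They are called tumour 1 and tumour 2 here. Those of mouse 2721 were more alike than any other pair of libraries. The label 1268_1270 may stand for 1 mouse or for a pool and was counted as 1 mouse. Marrow came from 9 NPM1cA/SMC3+/- mice, of which 1267 and 2721 also gave sarcomas. The remaining library was 1 sarcoma of mouse 841, which carried NPM1cA with wild-type SMC3. The labels name no Cre, promoter, age or treatment, and none of the samples analysed here is labelled as free of leukaemia, so no level here is compared with healthy marrow.

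Megakaryocytes are the large marrow cells that shed platelets. Platelets stop bleeding with a few surface complexes: the integrin made by Itga2b with Itgb3 binds fibrinogen, and the complex of Gp1ba, Gp1bb, Gp9 and Gp5 binds von Willebrand factor on damaged vessels. Their alpha granules hold chemokines, chiefly those made by Pf4 (CXCL4) and Ppbp (pro-platelet basic protein, CXCL7), and their discoid shape rests on a ring of microtubules built with the beta-tubulin of Tubb1. These genes are driven by GATA1 together with ETS-family factors such as FLI1. Pf4 is also made by some macrophages, so it was set beside the glycoprotein genes, which are much more restricted to the platelet lineage.

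On GRCm38, the build of the gene annotation used here and not the mm9 named for the study's processing, Ppbp (chr5:90768518-90770063) and Pf4 (chr5:90772435-90773383) lie on the plus strand of chromosome 5, 2371 bases apart. The promoter windows of 4 genes are shown because they are the genes whose levels are compared most closely below: the neighbouring chemokines, the integrin subunit and the smallest glycoprotein. Each runs from 250 bases before to 50 bases after the start of the gene in RefSeq (GRCm38.p6), 5′ to 3′ on the gene's strand. Capitals mark GATAA, a core of GATA sites, and GGAAG, a core of ETS sites, or their reverse complements TTATC and CTTCC. The windows are chr5:90772185-90772484 (plus strand) for Pf4, chr5:90768268-90768567 (plus strand) for Ppbp, chr11:102469834-102470133 (minus strand) for Itga2b and chr6:87777820-87778119 (plus strand) for Gp9.
Pf4: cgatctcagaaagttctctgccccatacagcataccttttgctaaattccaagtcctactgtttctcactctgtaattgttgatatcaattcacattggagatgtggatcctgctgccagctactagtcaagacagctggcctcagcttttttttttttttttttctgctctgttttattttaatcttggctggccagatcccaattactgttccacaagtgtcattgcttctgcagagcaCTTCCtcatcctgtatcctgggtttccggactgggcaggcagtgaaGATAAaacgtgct
Ppbp: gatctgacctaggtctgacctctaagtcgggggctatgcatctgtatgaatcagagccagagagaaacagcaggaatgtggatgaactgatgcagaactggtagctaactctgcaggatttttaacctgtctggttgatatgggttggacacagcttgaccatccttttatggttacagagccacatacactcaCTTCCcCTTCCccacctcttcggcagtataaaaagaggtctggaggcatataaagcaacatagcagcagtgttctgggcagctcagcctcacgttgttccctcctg
Itga2b: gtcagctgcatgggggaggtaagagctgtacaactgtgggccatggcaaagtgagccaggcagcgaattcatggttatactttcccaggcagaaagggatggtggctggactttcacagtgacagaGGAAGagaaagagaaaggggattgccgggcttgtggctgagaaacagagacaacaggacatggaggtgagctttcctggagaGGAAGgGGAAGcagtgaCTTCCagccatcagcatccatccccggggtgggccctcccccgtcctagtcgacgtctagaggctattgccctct
Gp9: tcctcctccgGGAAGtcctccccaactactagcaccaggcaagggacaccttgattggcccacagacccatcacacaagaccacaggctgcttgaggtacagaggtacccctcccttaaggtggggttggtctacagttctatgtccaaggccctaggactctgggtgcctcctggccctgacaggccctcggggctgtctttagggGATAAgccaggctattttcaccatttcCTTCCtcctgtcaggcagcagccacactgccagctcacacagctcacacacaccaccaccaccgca

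All 8 genes had a promoter entry. GGAAG on either strand lay in all 8 windows, but it also lies in 71.4% of the 32851 mouse promoter windows of the same length. GATAA on either strand lay in 4 of 8 (Pf4, Gp1ba, Gp9 and Gp5), against 25.4% of all windows. In Pf4 GATAA began 38 bases after the annotated start, and CTTCC began 9 bases before that start. In Gp9 GATAA began 43 bases before the start. Ppbp, next to Pf4, held CTTCC at 56 and 50 bases before its start, and Itga2b held 4 GGAAG matches. A match of 5 letters is a description of the sequence and no evidence of binding.

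Levels are CPM, a gene's share of the counts of a library on a fixed scale, here with TMM factors, and tumours of 1 mouse were added up. Depth was 12395041 to 39197660 counts in the marrows, 12072482 to 33605464 in the 6 sarcoma libraries with SMC3+/- and 9797201 in the sarcoma of 841. A floor of 3 counts therefore stood at 0.0697 to 0.279 CPM, and this and all intervals of that kind cover counting error only. Marrows 737, 779 and 782 stood apart: the median log2 deviation of 1121 genes with transcripts over 6 kb was -2.11, -2.16 and -1.95 there and -0.63 to 0.45 in the other 13 libraries. Marrow 1267 was the lowest of the other libraries (-0.63), followed by tumour 1 of mouse 948 (-0.57). Without marrows 737, 779 and 782 no gene of the 8 was called. The fold changes (sarcoma minus marrow, log2) were then 3.08 for Pf4, -1.79 for Ppbp, -2.27 for Itga2b, -0.45 for Gp1ba, -0.35 for Gp1bb and 0.14 for Gp9. Tumours went straight into the extraction reagent whereas marrow was filtered, freed of red cells and washed, so tissue and handling cannot be told apart. In bulk RNA, fewer cells of a type and less RNA per cell cannot be told apart either.

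Of the 6 genes that could be tested, Pf4 alone was called different between tissues, close to the threshold (edgeR adjusted p = 0.0484). Pf4 was higher in the sarcomas of all 4 SMC3+/- mice than in any of the 9 marrows. The platelet glycoproteins, Itga2b and Ppbp overlapped between the tissues. Over all 14730 genes tested, 4.49% were called higher in sarcomas, and 4.43% were higher there without overlap. Most of the 8 genes were low everywhere. Among the marrows, mouse 1103 held the highest level of 6 of the 8 genes, and mouse 1267 had no count of 6 of the 8.

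**Figure D1:**
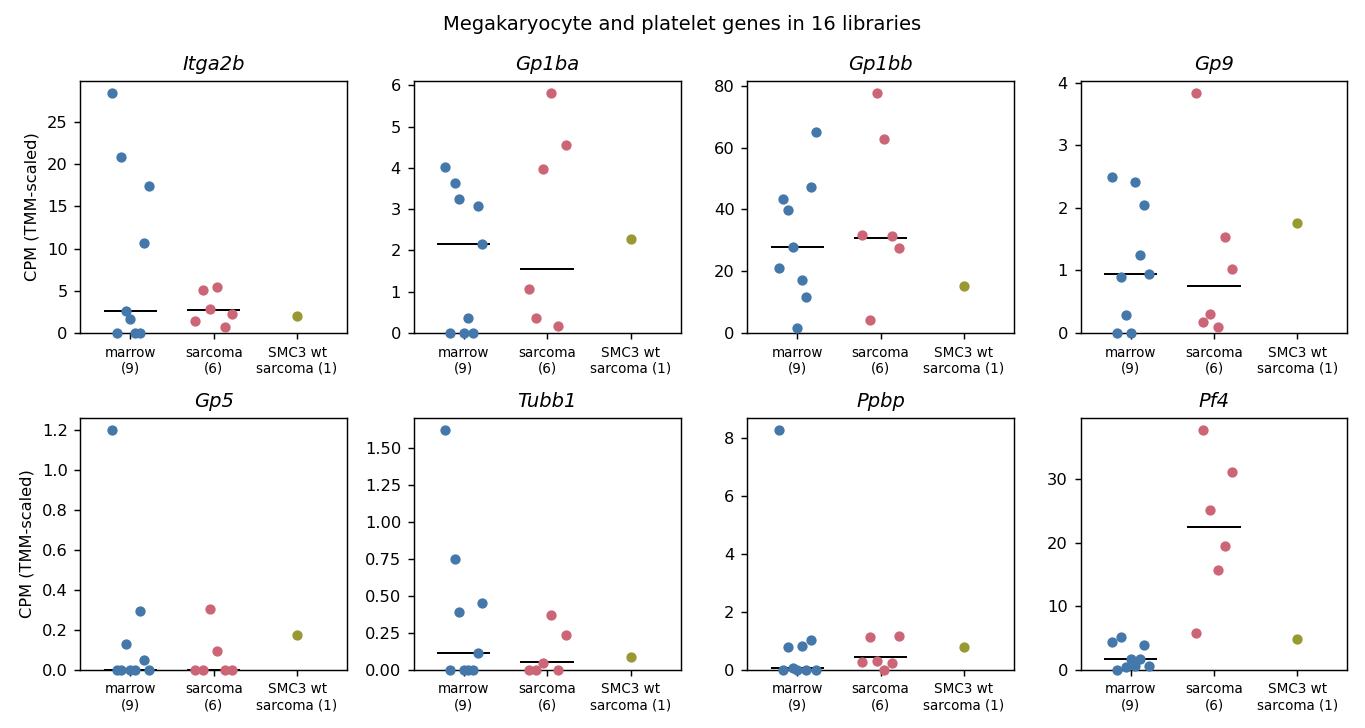
Levels of the 8 genes in each of the 16 libraries (CPM, linear axes that differ between panels). Points are libraries and black lines are medians over mice; Pf4 is the 1 panel in which all 6 SMC3+/- sarcoma libraries lie above all 9 marrows.

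Itga2b encodes the alpha subunit of the fibrinogen receptor and is also read in early haematopoietic progenitors and mast cells. It reached 28.4 CPM in marrow 1103, 20.9 in 2721, 17.4 in 949 and 10.6 in 919, but 2.65 in 3332, 1.69 in 737 and 0.0553 (1 count) in 1267, with no count in 779 and 782. The sarcomas of mice 948, 1267, 2721 and 1268_1270 had 1.34, 1.38, 4.12 and 5.08 CPM, all inside the marrow range. The difference between 2.98 ± 1.91 CPM in 4 sarcomas and 9.07 ± 10.8 CPM in 9 marrows (mean ± SD) did not pass the test (log2 -1.66 ± 1.52 SE, edgeR adjusted p = 0.797). Markers of mast cells and basophils were high in some of the same marrows: their 10 genes summed to 561 CPM in 949, 348 in 1103 and 257 in 2721, against 12.1 to 139 CPM in the other 6 marrows and 18.5 to 63.8 CPM in the sarcomas. The part of these cells in the Itga2b level was not tested.

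Gp1ba encodes the large subunit of the von Willebrand factor receptor, the one that holds the binding site. Its marrow level ran from 0 CPM in mice 1267, 737 and 782 over a median of 2.15 to 4.02 in mouse 1103. In the sarcomas it was 0.363 CPM in mouse 1268_1270, 1.07 in 1267, 2.05 in 948 and 4.86 in 2721. The tissues overlapped, at 2.08 ± 1.97 against 1.83 ± 1.73 CPM (log2 0.12 ± 1.39, edgeR adjusted p = 0.996). The 2 tumours of mouse 948 differed widely, with 3 counts (0.176 CPM) in tumour 1 and 58 counts (4.55 CPM) in tumour 2.

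Gp9, the small subunit without which the complex does not reach the surface, was lower still. Marrow 1103 had 2.50 CPM, 779 had 2.42 and 919 had 2.04, the median was 0.948, and 1267 and 737 had none. The sarcoma of mouse 1267 held 3.84 CPM (133 counts), the highest value of any library, and the other sarcomas held 1.31 (948), 0.201 (2721) and 0.181 (1268_1270). Means of 1.38 ± 1.72 and 1.15 ± 0.982 CPM differed by less than the spread between mice (log2 0.13 ± 1.26, edgeR adjusted p = 0.996). Gp1ba and Gp9, partners in 1 complex, thus did not rank the sarcomas alike: mouse 2721 was highest for Gp1ba and near the lowest for Gp9.

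Gp5, the outer subunit that thrombin cleaves, was almost unread. Marrow 1103 had 37 counts (1.20 CPM), 782 and 3332 had 4 each, 919 had 2 and the other 5 had none. Of the SMC3+/- sarcomas only that of mouse 2721 held any, 9 counts over its 2 tumours (0.201 CPM), and mouse 841 had 2 counts. Tubb1, the platelet microtubule gene, had 50 counts in marrow 1103 (1.62 CPM), 20 in 2721 (0.748 CPM), 12 in 3332, 9 in 949 and 5 in 919, and none in the other 4. In sarcomas it had 9 counts in mouse 2721 and 3 in mouse 948, with none in the other SMC3+/- sarcomas. Neither Gp5 nor Tubb1 passed the count filter, so neither was part of the comparison as run. Fitted without a filter, neither was called.

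Gp1bb looked like an exception among the glycoproteins. Per kilobase of transcript it was the highest of the 4 complex subunits in every library. In marrow it ran from 1.53 CPM (737) over a median of 27.8 to 64.9 CPM (949). Sarcomas had 4.17 CPM in mouse 1268_1270, 29.6 in 948, 31.7 in 1267 and 70.6 in 2721. Means of 34.0 ± 27.4 and 30.5 ± 19.96 CPM did not differ beyond the spread (log2 0.08 ± 0.73, edgeR adjusted p = 0.996). Its counts may in part be those of a neighbour, however, which was not tested. Sept5, a septin gene of the same strand, overlaps it on chromosome 16 in the GRCm38 annotation used here. There 1902 of the 2087 exon bases of Gp1bb (91.1%) also belong to a Sept5 transcript, and 593 (28.4%) do so without the longest Sept5 transcript. How the authors' counting assigned reads there is not given in the sources used here.

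Across the 9 marrows, Gp1bb followed Sept5 closely (Pearson r = 0.992, exact permutation p = 1.10e-05, adjusted over 35 relations 0.000386; Spearman rho = 0.95, exact permutation p = 0.000353, adjusted 0.0113). Without the 2 marrows farthest from the median of the first-named gene, the rule used for all such values here, r was 0.973, and in the 6 marrows without 737, 779 and 782 it was 0.957. Gp1bb counts made up 15.4% to 31.3% of Sept5 counts in marrow and 25.1% to 45.3% in the SMC3+/- sarcoma libraries. None of the other 7 genes passed this test with Gp1bb: across marrows its r was 0.58 with Gp1ba, 0.39 with Gp9, 0.29 with Itga2b and -0.15 with Pf4 (rho 0.32, -0.02, 0.47 and -0.07; exact permutation p 0.0713 to 0.973, adjusted 0.326 or more), and 0.02, -0.35, 0.20 and 0.12 without the 2 farthest marrows. In mouse 1267 the marrow had 43.5 CPM of Gp1bb with no count of Gp1ba, Gp9 or Gp5. Sept5 itself was at 90.6 ± 63.9 CPM in sarcomas and 120 ± 78.8 CPM in marrows (log2 -0.49 ± 0.70, edgeR adjusted p = 0.916).

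**Figure D2:**
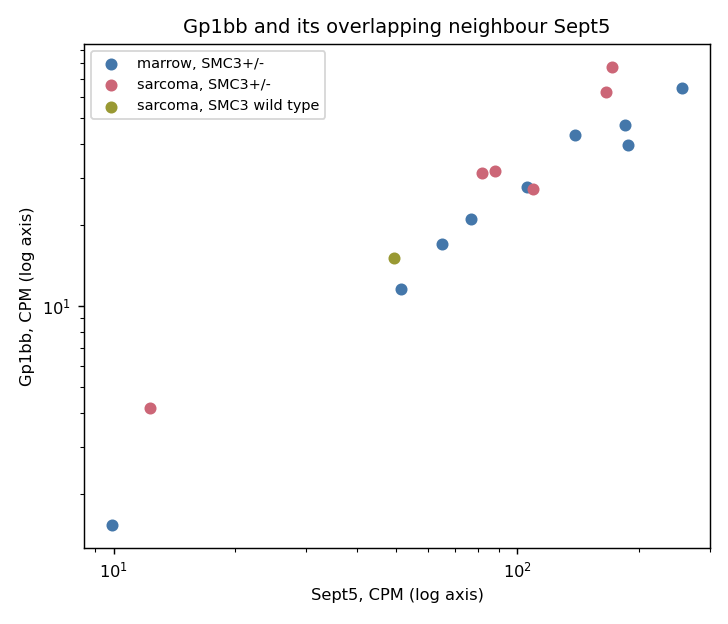
Gp1bb against Sept5 in the 16 libraries, both in CPM on log axes. Each point is a library. The points lie near a single line from marrow 737 (1.53 CPM of Gp1bb) to tumour 1 of mouse 2721 (77.7 CPM). Most SMC3+/- sarcoma libraries lie somewhat above the marrows, but tumour 2 of mouse 948 and the sarcoma of 841 lie among them.

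Ppbp, the other platelet chemokine gene, was read mainly in 1 marrow. Marrow 1103 held 8.30 CPM (256 counts), followed by 1.05 in 919, 0.837 in 779, 0.786 in 2721 and 0.0655 in 3332, and the other 4 marrows had none. Sarcomas held 0.157 (2721), 0.260 (1267), 0.638 (948) and 1.13 CPM (1268_1270), inside the marrow range. The fold change was -1.24 ± 1.77 on the log2 scale (edgeR adjusted p = 0.916), with means of 0.547 ± 0.442 and 1.23 ± 2.69 CPM. Its direction rested on 1 marrow: without mouse 1103 it was 0.67.

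Pf4 encodes platelet factor 4, a chemokine that binds heparin. In marrow it was at 0 CPM in mouse 1267, 0.393 in 3332, 0.558 in 779, 0.649 in 949, 1.61 in 737, 1.62 in 782, 3.83 in 919, 4.38 in 1103 and 5.16 in 2721. In sarcomas it was at 5.77 CPM in mouse 1267, 20.6 in 2721 (25.1 and 15.7 in its tumours), 24.5 in 948 (19.4 and 31.1) and 37.8 in 1268_1270. Every SMC3+/- sarcoma thus lay above every marrow, although the gap between the sarcoma of 1267 and the marrow of 2721 was small. Pf4 rose in the sarcomas by 3.40 ± 0.91 on the log2 scale, with means of 22.1 ± 13.2 CPM (SD, n = 4) and, in marrow, 2.02 ± 1.93 CPM (SD, n = 9; edgeR adjusted p = 0.0484).

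This call was close to the threshold and rested on single mice. The fold change stayed between 2.97 and 3.77 when any mouse was left out, but the adjusted p was 0.313 without sarcoma 1268_1270, 0.0763 without sarcoma 2721, 0.0724 without sarcoma 948 and 0.0571 to 0.0794 without any of marrows 3332, 737, 779, 782, 919 and 949; without the 3 marrows low in long transcripts together it was 3.08 with adjusted p = 0.173. With the mouse as a block the fold change was 3.94 (edgeR adjusted p = 0.830). Only mice 1267 and 2721 gave both tissues, so that fit compares the tissues within these mice alone.

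Of the 8 genes, 6 passed the count filter, 1 was called higher in sarcomas and none lower. Over all genes, 4.49% of 14730 were called higher and 0.0543% lower, and the groups did not overlap for 4.43% with sarcomas higher and 0.149% with sarcomas lower. DESeq2 and limma-voom also called Pf4 alone among the 6, and Pf4 alone had an unadjusted p under 0.05. The median log2 fold change of the 6 was 0.10, against 0.07 over all genes tested.

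Per kilobase of transcript, which allows genes to be compared, the order of the genes differed between tissues. In sarcomas the median level was 38.3 CPM per kb for Pf4 and 14.7 for Gp1bb, then 0.858 for Gp9, 0.800 for Itga2b, 0.575 for Gp1ba, 0.414 for Ppbp, 0.0358 for Tubb1 and 0 for Gp5. In marrow it was 13.3 CPM per kb for Gp1bb, 2.74 for Pf4, 1.08 for Gp9, 0.792 for Gp1ba, 0.771 for Itga2b, 0.0826 for Tubb1, 0.0604 for Ppbp and 0 for Gp5. The neighbours Gp9, Gp1ba and Itga2b overlapped over mice in both tissues and have no order beyond their spread. Pf4 and Gp1bb did not keep their order in every mouse either. In the sarcoma of 1267 Gp1bb was higher (15.2 against 9.81 for Pf4), and in that of 2721 they were nearly level (33.9 and 35.0). In marrow 737 Pf4 was higher (2.74 against 0.734 for Gp1bb). Ppbp, made with Pf4 in platelet granules, had a lower median than Pf4 in both tissues, but in marrow 1103 the pair was level, at 7.67 CPM per kb for Ppbp and 7.45 for Pf4, and in marrow 779 nearly so (0.773 and 0.949).

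Pf4 was next set against the glycoproteins within each sample, as a log2 ratio of CPM with 0.05 CPM added to both sides. Against Itga2b it was 2.02 (1267), 2.31 (2721), 2.88 (1268_1270) and 4.14 (948) in the sarcomas, a mean of 2.84 ± 0.94 (SD, n = 4). In marrow it ran from -4.64 (949) over a median of -1.46 to 5.06 (782), with a mean of -0.65 ± 3.11 (SD, n = 9). The groups overlapped only through marrows 779 (3.60) and 782 (5.06), which had no count of Itga2b and are low in long transcripts. The other 7 marrows lay at or below -0.07, among them 1267 (-1.07), with no count of Pf4 and 1 of Itga2b.

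Against the summed Gp1ba, Gp9 and Gp5, leaving out Gp1bb, the ratio was 0.23 (1267), 1.96 (2721), 2.85 (948) and 5.99 (1268_1270) in sarcomas. In marrow it ran from -3.07 (3332) over a median of -0.42 to 5.05 (737), where none of the glycoproteins had a count. The means of 2.76 ± 2.41 and -0.38 ± 2.35 differed by 3.13. In marrow 1267 neither Pf4 nor the glycoproteins had a count, so its ratio of 0 is set by the added 0.05 CPM alone. Without 737, the highest marrow was 2721 at 0.19, just under sarcoma 1267. With Gp1bb in the sum the means were -0.49 ± 2.50 and -4.45 ± 2.83, a difference of 3.95. The lowest marrow there was 1267 at -9.77, where Pf4 had no count and the added 0.05 CPM sets its side of the ratio. No test is given for these ratios, since Pf4 and its comparison were chosen with results known.

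**Figure D3:**
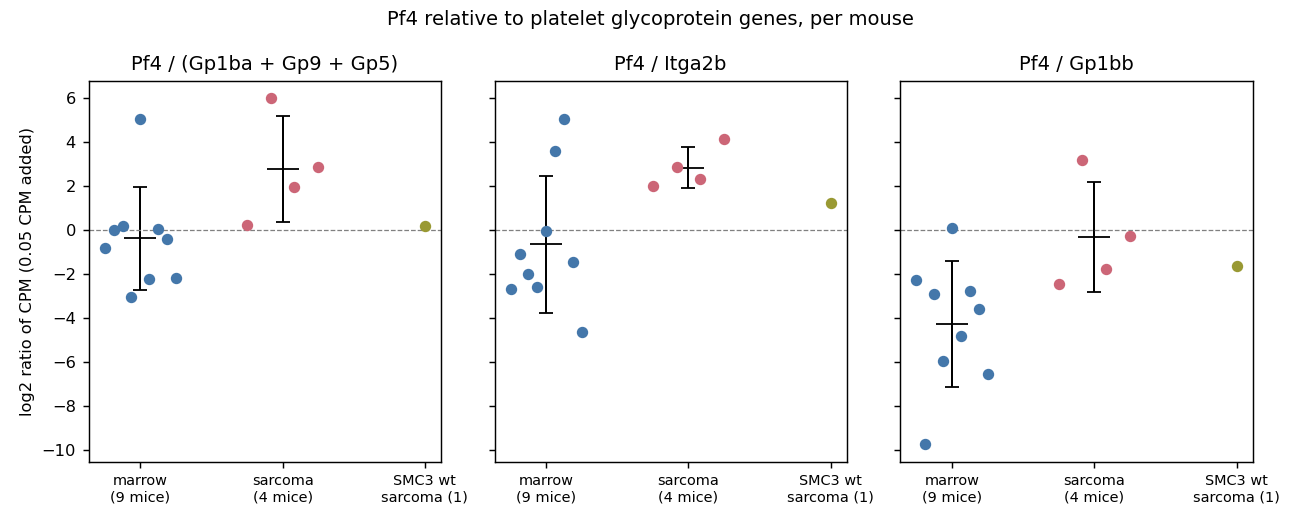
Log2 ratio of Pf4 to the summed Gp1ba, Gp9 and Gp5 (left), to Itga2b (middle) and to Gp1bb (right), per mouse and tissue. Points are mice, and black marks are means with SD; the 4 SMC3+/- sarcomas lie above most marrows in each panel. Marrows among or above them are 737 (left), 779 and 782 (middle), which have no count in the denominator, and 737 and 1103 (right), which have one.

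Mice 1267 and 2721 gave both tissues, which allows a reading within an animal. In mouse 1267 Pf4 had 200 counts in the sarcoma (5.77 CPM) and none in the marrow, at least 34.8-fold higher against a floor of 3 counts in that marrow library. Gp9 and Gp1ba went the same way in this mouse, at least 23.1-fold and 6.44-fold higher, so the rise was not limited to Pf4 there. In mouse 2721 Pf4 was 3.98-fold higher in the sarcoma (20.6 against 5.16 CPM). There Itga2b was lower in the sarcoma (4.12 against 20.9 CPM), as were Gp9 (0.201 against 0.898), Ppbp (0.157 against 0.786) and Tubb1 (0.201 against 0.748), while Gp1ba was 4.86 against 3.63. Pf4 was thus higher in the sarcoma of both mice, and the directions of Itga2b, Gp9 and Ppbp differed between them; with 1 library of marrow each, these differences have no replicate check.

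Macrophage genes were higher in the sarcomas too. C1qa, a complement gene of tissue macrophages, had 115 to 228 CPM in the sarcomas and 0 to 15.5 CPM in the marrows (log2 4.76 ± 0.91, edgeR adjusted p = 0.00719), and C1qb and C1qc rose by 4.43 ± 0.95 (adjusted p = 0.0144) and 4.55 ± 0.86 (adjusted p = 0.00683). Over all genes tested 4.49% were called higher, with a median log2 fold change of 0.07. Of 20 macrophage markers 6 were called higher (C1qa, C1qb, C1qc, Mrc1, Folr2 and Cd5l), none lower, with a median log2 fold change of 2.88. Without sarcoma 1268_1270 3 were, and C1qb missed the threshold (4.46, adjusted p = 0.0524). Without marrows 737, 779 and 782, 5 were, C1qa, C1qb and C1qc among them (4.89, 4.26 and 4.61). Over all genes, calls in either direction fell from 670 of 14730 to 170 of 15045 and 335 of 14701 in these settings. The median log2 fold change of the 20 macrophage markers was then 2.08 and 2.56. Their summed level was 1321 to 2623 CPM in sarcomas and 233 to 1239 CPM in marrows. Cd68, Emr1 and Csf1r, which monocytes and leukaemic cells also express, did not pass the test (log2 0.73, -0.24 and -0.50, adjusted p 0.690 to 0.978). Pf4 and the C1q genes therefore separated the same samples, as did 4.43% of the 14730 genes tested with sarcomas higher. The part of macrophages in the Pf4 level was not tested. Among the sarcomas the order differed, since 1268_1270 had the most Pf4 but the lowest summed macrophage markers.

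Within the 9 marrows no relation of Pf4 with a macrophage gene passed the test. Its Pearson r was 0.07 with C1qa, 0.06 with C1qb, 0.06 with C1qc, -0.06 with Cd68, -0.11 with Emr1 and 0.10 with Csf1r (rho -0.23 to 0.13; exact permutation p 0.552 to 0.982, adjusted 0.800 or more), and -0.32 to 0.42 without the 2 farthest marrows. Marrow 1103 had 4.38 CPM of Pf4 with 1.78 CPM of C1qa, and marrow 737 had 1.61 CPM with 15.1. With the platelet genes r was 0.60 for Ppbp, 0.60 for Itga2b, 0.58 for Gp9 and 0.47 for Gp1ba, none of which passed (rho 0.45 to 0.57, exact permutation p 0.0845 to 0.223, adjusted 0.326 or more). Without the 2 farthest marrows these r were 0.55, 0.57, 0.09 and 0.45, so the one with Gp9 rested on those samples. In the 6 marrows without 737, 779 and 782 these r were 0.81, 0.90, 0.92 and 0.84. There r was 0.38 with Gp5, 0.69 with Tubb1, -0.24 with Gp1bb and -0.14 to 0.38 with the 6 macrophage genes. By rank, rho in these 6 marrows was 0.72 for Ppbp, 0.89 for Itga2b, 0.66 for Gp9 and 0.77 for Gp1ba. For the macrophage genes it ran from -0.26 to 0.37. Marrow 1267 is among these 6, with no count of Pf4, Ppbp, Gp9 or Gp1ba and 1 of Itga2b. How far these r rest on marrow 1267 was not tested. Whether Pf4 follows platelet genes more closely than macrophage genes in marrow was not tested.

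**Figure D4:**
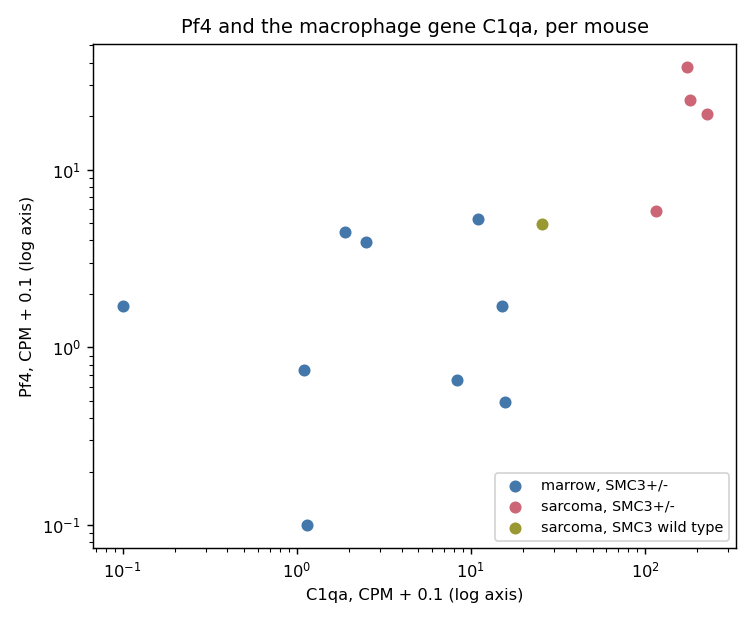
Pf4 against the macrophage gene C1qa, per mouse and tissue (CPM + 0.1, log axes). The 4 SMC3+/- sarcomas lie at the upper right, between 115 and 228 CPM of C1qa, and the marrows show no slope; mouse 841 lies between them at 25.6 CPM of C1qa and 4.83 of Pf4.

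Some other pairs of the 8 genes had a high r in marrow, but none passed after adjustment. Gp1ba and Tubb1 had r = 0.86 (exact permutation p = 0.00747, adjusted 0.0880). Itga2b and Tubb1 had r = 0.85 (exact permutation p = 0.00754, adjusted 0.0880). Without the 2 marrows farthest from the median r was 0.81 for both pairs, and in the 6 marrows it was 0.79 and 0.83. Itga2b and Gp1ba had r = 0.81 (exact permutation p = 0.0186, adjusted 0.163), with r = 0.83 without the 2 farthest marrows and 0.91 in the 6. Rank correlations of these pairs are not given, because marrows without a count were not always ranked as ties. Marrows 1103 and 2721 held the most Tubb1, Itga2b and Gp1ba. The 3 marrows low in long transcripts had no Tubb1 count and 0 to 1.69 CPM of Itga2b, and Tubb1 and Gp1ba were also at 0 in marrow 1267.

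The sarcoma of mouse 841, with wild-type SMC3, held 4.83 CPM of Pf4 (55 counts), below the 5.77 to 37.8 CPM of the SMC3+/- sarcomas and inside the marrow range. Its other 7 genes lay inside the SMC3+/- sarcoma range, with 15.1 CPM of Gp1bb, 2.28 of Gp1ba, 2.02 of Itga2b, 1.76 of Gp9 and 0.790 of Ppbp. C1qa was also lower there, at 25.6 CPM, and the summed macrophage markers reached 740 CPM. The Pf4 difference of -2.17 (log2) did not pass edgeR's test under the assumption that this tumour varies as the other 4 do (adjusted p = 1.00, unadjusted p = 0.117). Of 17762 genes tested in this comparison 0 were called (0%), with 236 at an unadjusted p under 0.05. A single tumour gives no spread of its own, so genotype and mouse cannot be told apart.

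The wider platelet genes were read from 4 lists of 20 genes each. Of the 74 tested, 9 were called higher in sarcomas (12.2%) and none lower, and the median log2 fold change was -0.16. Over all genes tested, 4.49% were called higher and 0.0543% lower, with a median of 0.07. Among receptors and surface proteins 2 of 17 tested were called higher: Esam, an adhesion molecule of endothelium and platelets (7.40 ± 1.20, edgeR adjusted p = 0.00262), and Cd36, a scavenger receptor (6.71 ± 1.31, adjusted p = 0.00794). Among granule and secretion genes 3 of 20 were: Sparc, a matrix glycoprotein (10.02), Timp3, a metalloproteinase inhibitor (6.18), and Clu, clusterin (4.95). Among signalling and cytoskeleton genes 4 of 18 were: Myl9 (8.81) and Mylk (4.11), the myosin light chain and its kinase, the caveolar gene Sdpr (8.64) and the guanylate cyclase subunit gene Gucy1a3 (5.70). None of 19 transcription and growth genes was called by edgeR, DESeq2 or limma-voom, with 2 at an unadjusted p under 0.05 in edgeR.

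The 9 called genes are ones that endothelium, muscle, fat or fibroblasts also express, and sarcoma 1268_1270 held the highest level of all 9, such as 4882 CPM of Cd36 and 6702 CPM of Sparc. The size of the changes rested on it as well: without that sarcoma the log2 fold change was 2.88 for Sdpr, 2.96 for Cd36, 2.89 for Clu, 2.84 for Mylk, 3.61 for Gucy1a3, 4.87 for Timp3, 6.01 for Esam, 6.94 for Myl9 and 7.25 for Sparc. Of the 9, 3 were then called again (Esam, Myl9 and Sparc), and without marrows 737, 779 and 782, 6 were. With the mouse as a block 2 genes of the 4 lists were called higher. Endothelial markers were also higher in the sarcomas, 6 of 12 called, against 4.49% of all genes tested. Without sarcoma 1268_1270 none of the 12 were called, without the 3 marrows low in long transcripts 4 were, and with the mouse as a block 1 was. Over all genes, calls in either direction fell from 670 of 14730 to 170 of 15045, 335 of 14701 and 130 of 14730 in these settings. The median log2 fold change of the 12 endothelial markers was 5.17 at first, and 3.75, 4.94 and 9.06 in these settings. Their summed levels were 134 to 641 CPM in sarcomas against 30.7 to 163 CPM in marrow. Pan-leukocyte genes were low in 1268_1270, at a summed 701 CPM against 5934 to 10957 in the other SMC3+/- sarcomas and 7978 to 14858 in marrow. The part of these other cells in the 9 calls was not tested.

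Landmark genes of platelets and megakaryocytes outside the 8 were read beside these lists. Itgb3, the partner of Itga2b, which myeloid cells also use, was at 32.4 ± 15.8 CPM in sarcomas and 50.9 ± 27.1 in marrows (log2 -0.76 ± 0.47, edgeR adjusted p = 0.598). Treml1, a platelet granule receptor, was at 0.850 CPM in sarcomas and 0.294 CPM in marrows (log2 1.46 ± 1.31, adjusted p = 0.788). Gp6, the collagen receptor, had 7 counts in tumour 2 of mouse 948 and none elsewhere. Vwf, made by endothelium and megakaryocytes, had 14.5 to 39.4 CPM in sarcomas and 0 to 12.6 in marrows without overlap, but its fold change of 2.19 ± 1.00 missed the threshold (adjusted p = 0.344).

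Among the transcription factors, Gata1, which drives megakaryocyte and erythroid genes, ran from 0 to 7.17 CPM in marrow and from 0 to 0.537 in sarcomas (log2 -3.01 ± 1.89, edgeR adjusted p = 0.602). Gfi1b and Nfe2, its partners in platelet production, had fold changes of -1.83 ± 1.54 (adjusted p = 0.763) and -1.29 ± 0.59 (adjusted p = 0.351). Fli1 (0.04) and Runx1 (0.10), which leukaemic myeloid cells also express, were at about 100 CPM in sarcomas (101 and 99.8) and 91.6 and 87.1 in marrows. None of these regulators was called, but with SE of 1.89 for Gata1 and 1.54 for Gfi1b sizeable changes could be missed. Their part in the Pf4 level was not tested.

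**Figure D5:**
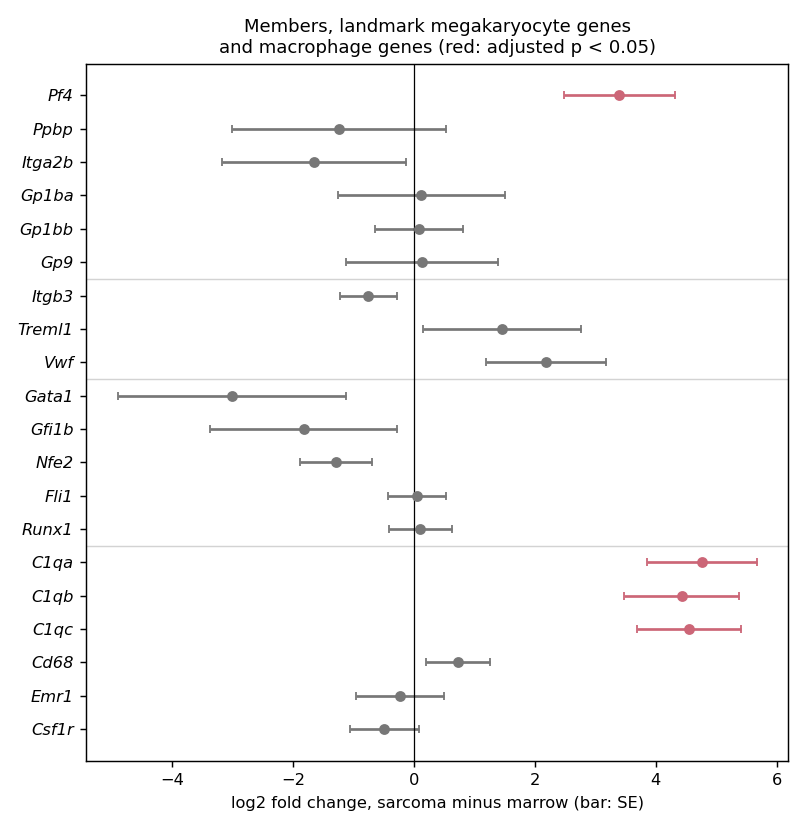
Log2 fold change, sarcoma minus marrow, with SE, for the 6 tested genes, landmark megakaryocyte genes and macrophage landmark genes. Red marks an edgeR adjusted p under 0.05; of the platelet and megakaryocyte genes plotted only Pf4 (3.40) is red, beside C1qa, C1qb and C1qc.

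Last, the genes most like each member were looked up by Pearson correlation of log2 CPM over the 14 samples of a mouse and tissue, among 11009 or 11010 other genes. Those nearest Pf4 were Serpina3n (r = 0.86), Map3k15 (0.85), C4b (0.84), Trove2 (0.84) and Nckap1 (0.84), and in the 9 marrows alone their r with Pf4 was 0.61 to 0.70. Itga2b lay nearest to Sptb, the spectrin beta chain gene (0.96), then Mto1 (0.93), Zfp619 (0.92), Nfkb2 (0.91) and Xpo7 (0.91). Ppbp lay nearest to S1pr3 (0.76), Tgfbr3 (0.76), Colec12 (0.76), Klhl5 (0.74) and Zfp810 (0.73), and Gp9 to Cdc37l1 (0.76), Plekha8 (0.75), Ak4 (0.75), Ppp1r21 (0.74) and Pxk (0.73). Predicted genes were passed over, which left out 1 gene for Ppbp and none for Pf4, Itga2b and Gp9. The points share their libraries and tissue, so these values describe likeness in these 14 samples.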

How the data were processed

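The authors deposited 1 table of raw counts per gene symbol for 16 libraries (23999 symbols, 2844 of them without a count). The submitters' processing notes name STAR, DESeq, DESeq2 and mm9 without roles or versions, and say nothing here of strand or annotation. Each column matched 1 sample by name. Libraries of a mouse and tissue were summed, and 4 sarcoma mice were compared with 9 marrow mice by edgeR 4.0.16 in R 4.3.3 (TMM, filterByExpr, quasi-likelihood test, two-sided, Benjamini-Hochberg adjusted p under 0.05 over all genes tested). The SE is the absolute log2 fold change over the square root of F. Alternatives used DESeq2 1.42.0, limma 3.58.1 (voom), other scalings and filters, the mouse as a block, and mice left out. The labels name animals 1267 and 2721 for both tissues, which pairs those samples, and their deviations correlated at 0.29 and 0.21 over 14730 genes. Correlations used log2 CPM (prior count 2) and all 362880 orderings. Ranks of Itga2b, Gp5 and Tubb1 did not always tie marrows without a count, so rho and its p are approximate for these genes. The adjusted p of every rho is approximate too, since all were adjusted together. Transcript lengths came from GENCODE on GRCm38 by symbol. The comparison was tested on simulated data.

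The genes, lists and comparisons were chosen with earlier results of these data known. Genes named are the 8, called list genes (up to 4 a list), fixed landmark genes (of which 1 is not reported here), the nearest 5 by correlation, and Sept5; the macrophage genes Mrc1, Folr2 and Cd5l were named after their values were seen.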

Additional observations from a re-analysis of the deposited data

Results flagged for a closer look

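Single samples that lay far from the rest of their group were looked for in 24 sets of values, each a gene's CPM or a Pf4 ratio in 1 tissue, with Dixon's test, and 5 sets held one. Chance alone marks about 5% of sets of continuous values, a rate that does not hold for sets with many zeros. In marrow, mouse 1103 stood out for Ppbp (8.30 CPM, the next marrow 1.05), Gp5 (1.20 CPM, the next 0.294) and Tubb1 (1.62 CPM, the next 0.748). In the sarcomas, Gp5 was at 0.201 CPM in mouse 2721 (9 counts) and at 0 in the others, where any single value above 0 is marked by construction. The log2 ratio of Pf4 to Gp1ba, Gp9 and Gp5 was 5.05 in marrow 737, the next marrow being at 0.19. Marrow 737 had no count of the 3 glycoproteins and is low in long transcripts.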

How the results depend on the processing

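Over 32 alternatives the Pf4 fold change (3.40) ran from 2.95 to 5.81 and never turned. It lost the call with library totals (3.23), CPM of at least 1 in 4 samples (3.40), sarcoma 841 added (3.15), a block for mouse (3.94, or 4.16 within the pair 1267 and 2721), without marrows 737, 779 and 782 (3.08, chosen after seeing the data), without these and tumour 1 of 948 (3.24) and without sarcoma 1268_1270 as well (2.95); each leaves 0 of the 8 called higher, and leaving out single mice gives 0 to 1 (Pf4 2.97 to 3.77). DESeq2, limma-voom and pan-leukocyte scaling kept the call (3.44, 3.94 and 5.81). The last moves the median of all genes from 0.07 to 1.83. The removals that took out tumour 1 of 948 kept marrow 1267, which was lower in long transcripts (-0.627 against -0.575).

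Genes called higher numbered 662, but 6315 with pan-leukocyte scaling, 1355 unfiltered, 107 and 81 under the 2 blocks, 327, 300 and 62 under the 3 removals in the order above, and 170 to 762 with single mice out. Genes called lower numbered 8, but 83 by DESeq2, 20 by limma-voom, 13 unfiltered, 23 and 33 under the blocks, 17 with tumours as units, 20 with 841 added, 5 without the marrows of 1267 and 2721, 3 and 0 under the last 2 removals, and 0 to 16 with single mice out.

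Uncalled genes changed sign. Ppbp turned to 0.69 (DESeq2), 0.96 (limma-voom), 1.41 (pan-leukocyte) and 0.12 (block), and Itga2b to 0.20 (limma-voom), 1.00 (pan-leukocyte), 0.29 and 0.47 (blocks). Gp1bb turned to -0.037 (limma-voom), -0.089 (841 added), -0.33 and -0.35 (without 4 libraries or 3 marrows), Gp1ba to -0.35 (first tumours), -0.022 and -0.45 (same removals), and Gp9 to -0.094 (without the marrows of 1267 and 2721). With single mice out the ranges were -1.94 to 0.67 (Ppbp), -0.78 to 0.47 (Gp1ba), -0.62 to 0.45 (Gp1bb) and -1.11 to 0.49 (Gp9). The cause was not tested. The Pf4 ratio difference stayed between 2.79 and 4.94 over 20 alternatives. Counts of Gp5, Tubb1 and Ppbp were often near 0.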

Other observations

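The marrow of mouse 1103 was highest for 6 of the 8 genes, and it also held the highest summed erythroid markers of the 9 marrows, 1566 CPM, with 884 CPM in 949, 336 in 2721 and 19.7 to 188 in the other 6. Its endothelial markers summed to 163 CPM, against 30.7 to 80.9 CPM in the other marrows. Leaving out Gp1bb, the other 7 genes summed to 50.4 CPM in marrow 1103, 32.1 in 2721 and 0.0553 in 1267. In the SMC3+/- sarcoma libraries the same 7 genes summed to 12.3 to 44.5 CPM, of which Pf4 was 5.77 to 37.8 CPM.

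F2rl2 and Clec1b, receptors of platelets, were read in the sarcomas at 26.8 ± 35.3 and 3.20 ± 2.42 CPM (SD, n = 4), and in the marrows at 5.18 ± 7.13 and 0.906 ± 0.929 CPM (SD, n = 9), and neither was called. They were chosen after their values were seen.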
